A study of Mus musculus with 2 samples.

Results

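Genes that steer leukocytes into, within and out of the small intestine were followed, namely the chemokines Ccl25, Ccl28 and Ccl20, their receptors Ccr9, Ccr10 and Ccr6, the integrin chains Itga4 and Itgb7, and the sphingosine-1-phosphate receptor S1pr1. The 9 members were chosen by symbol from the 31053 features of the count matrices, and every one of them had UMIs in the kept cells of both mice. Single-cell RNA-sequencing was done on all live cells of the proximal small intestine (5 to 15 cm) of 2 VilCreER Apc fl/fl mice, here called APC mice. In this model the Villin promoter drives a tamoxifen-dependent Cre in intestinal epithelial cells, so that Apc is deleted in the epithelium and not, by design, in the leukocytes. Both mice received 2 injections of 2 mg tamoxifen 24 h apart and were taken on day 4, and each gave 1 library. Mice without the deletion were not analysed here, so no value below is an effect of Apc loss and every comparison is between cell classes of these 2 APC mice. The 3′ counts need not cover the deleted part of Apc, so the deletion itself was not checked.

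After filtering, 7941 cells of mouse 1 and 6957 cells of mouse 2 were kept, with medians of 4381 and 2803 UMIs. Levels are given as CPM, the usual library-scaled count, here of a gene in all cells of a class in 1 mouse, and the depth of the 2 libraries differed, with 81060645 and 35474260 kept UMIs. Clusters were called "-like" from marker genes, and 15 classes held at least 20 cells in each mouse. Defining markers were seen in unequal shares of cells. Cd8b1 was seen in 75.6% of CD8 T-cell-like cells and Trdc in 76.4% of gamma-delta T-cell-like cells. Foxp3 was seen in 82.7% of Treg-like cells and Siglech in 98.7% of Siglech dendritic-cell-like cells. Cd4 was less often seen, in 41.7% of the CD4 T-cell-like cluster found in both mice and in 51.4% of the other. The largest T-cell-like class, with 1882 and 4053 cells, could not be resolved into a subset, and Trdc was seen in 48.9% to 92.7% of the cells of its clusters. A cluster counted here as CD4 T-cell-like came almost wholly from mouse 1 (33 and 2 cells), and an acinar-like cluster of 199 cells was found in mouse 1 only and entered no test. The 2 libraries shared 24 cell barcodes, of which 16 were among the kept cells.

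Homing to the small intestine works through paired signals. Epithelial cells secrete CCL25, whose receptor CCR9 is carried by lymphocytes imprinted in gut-draining lymph nodes, while the integrin α4β7, made of the chains encoded by Itga4 and Itgb7, holds the same cells to MAdCAM-1 on gut venules. CCL28 is a mucosal chemokine for CCR10, best known on IgA-secreting plasma cells, and CCL20 draws CCR6-positive B cells, innate lymphoid cells and helper T cells to lymphoid follicles. S1PR1 senses sphingosine-1-phosphate in blood and lymph and takes lymphocytes out of tissue, so it is low on cells that stay.

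The first comparison asked which side of each ligand-receptor pair lay in the epithelium. The 3 ligands were higher in epithelial-like cells (crypt-like, enterocyte-like and Paneth-like together) and the receptors and integrin chains were higher in leukocyte-like cells. The leukocyte sums pool the UMIs of all named leukocyte classes. IgA plasma-cell-like cells gave the most of them, with 59.0% and 34.8% of all kept UMIs of mouse 1 and mouse 2. Levels of the leukocyte sums therefore depend on that share, which differed between the mice. Of the 9 members 8 passed the test, 3 higher and 5 lower in the epithelium, and 51.3% of all 13713 genes tested passed it. Ccl25 was listed at 288 and 243 CPM in the epithelial sums of mouse 1 and mouse 2 and at 6.72 and 16.3 CPM in the leukocyte sums, a log2 difference of 4.17 ± 0.40 (SE, n = 2 mice) with an adjusted p of 0.00109. Ccl20 stood at 7.78 and 6.21 CPM in the epithelium against 0.0293 and 0 CPM, and Ccl28 at 4.49 and 4.34 CPM against 0.0293 and 0 CPM. Those leukocyte sums hold so few UMIs of both genes that the fitted differences depend on the prior count, and the levels are the better guide. In the other direction Ccr9 was at 3.74 and 1.86 CPM in epithelial sums and 115 and 266 CPM in leukocyte sums, a log2 difference of -6.27 ± 0.52 (adjusted p = 0.000923). The log2 differences of Itga4 and Itgb7 were -5.48 ± 0.40 and -5.64 ± 0.39, both with an adjusted p of 0.000881. Ccr10 differed by -6.08 ± 1.08 on the log2 scale (adjusted p = 0.00593) and S1pr1 by -3.67 ± 0.95 (adjusted p = 0.0214). The epithelial sums held 7 UMIs of S1pr1, all in crypt-like cells of mouse 1, so the size of that difference depends on the prior count. Ccr6 had a log2 difference of -3.32 ± 1.26 and missed the threshold with an adjusted p of 0.0697. With the mouse as a replicate block it was called as well (adjusted p = 0.00295), which makes 9 of 9. The block called 7988 of all 13713 genes tested, against 7028 without it.

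**Figure D1:**
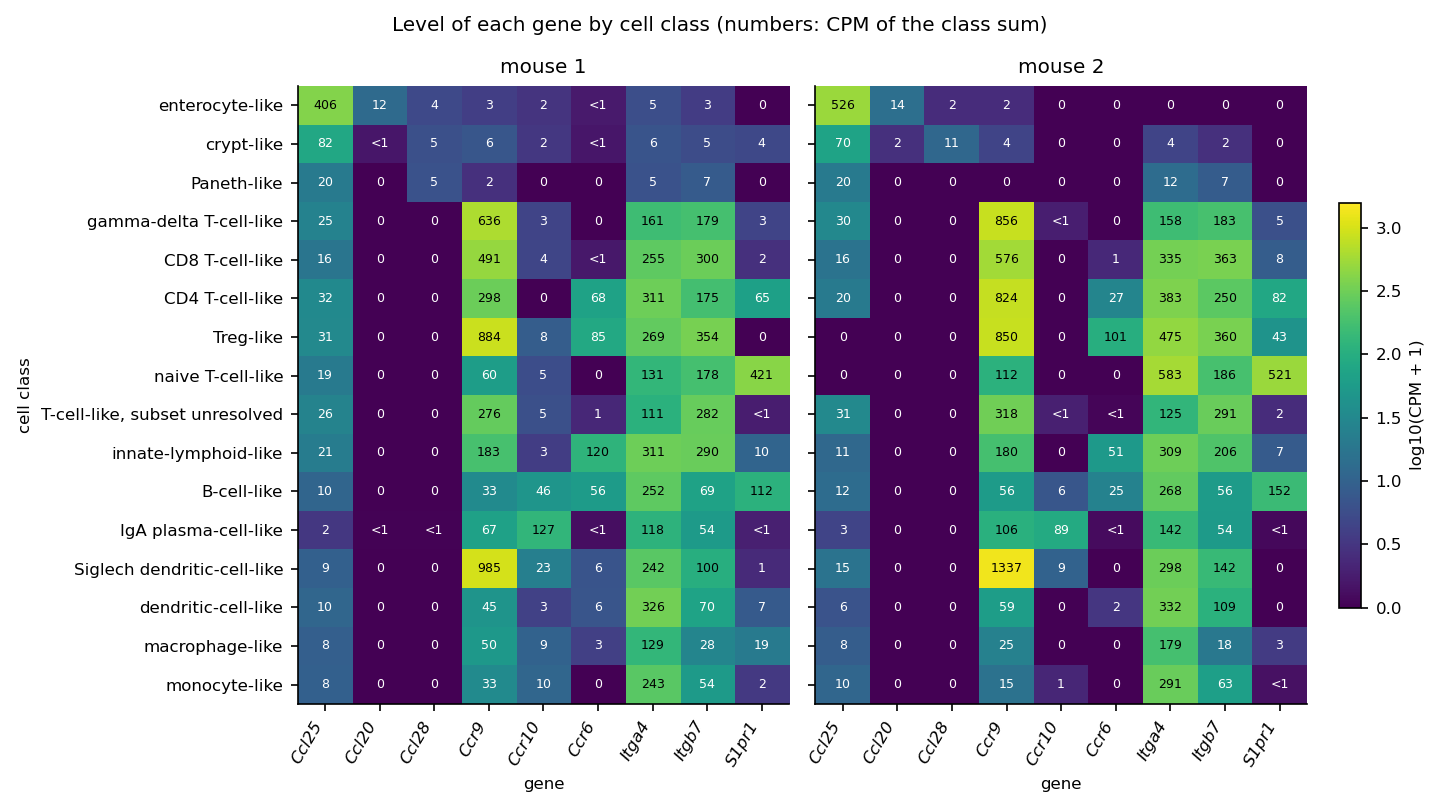
Level of the 9 members in the 15 classes with a test and in Treg-like cells, with 1 row for each class, 1 column for each gene and 1 panel for each mouse. Colour is log10(CPM + 1), and the number in each cell is the CPM of the class sum; the ligands stand in the epithelial rows, Ccr9 is highest in the Siglech dendritic-cell-like row (985 and 1337 CPM), Ccr10 in the IgA plasma-cell-like row and S1pr1 in the naive T-cell-like row.

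Ccl25 encodes the ligand of CCR9, and within the epithelium it belonged to the enterocyte-like cells. These held 406 CPM in mouse 1 and 526 CPM in mouse 2 (466 ± 85.2, s.d., n = 2), crypt-like cells 82.0 and 70.01 CPM (76.0 ± 8.46) and Paneth-like cells 19.79 and 19.96 CPM. The Paneth-like cluster of 32 and 34 cells had 4 Paneth markers among its 10 leading genes, with Cck and Chgb, genes of enteroendocrine cells, and Spink4, a gene of goblet cells, beside them. With mitochondrial UMIs under 10% the cluster with these leading genes (35 and 39 cells) was named goblet-like, and no class was named Paneth-like. Neither mouse's crypt-like level reached the enterocyte-like range. The log2 difference of crypt-like minus enterocyte-like was -2.99 ± 0.28 (SE), with a 95% interval of -3.56 to -2.41 and an adjusted p of 3.28e-08. It was the 1 member called of the 7 tested here, while 41.7% of all 11275 genes tested were called in this comparison, so being called is common here. After each cell was thinned to 1000 UMIs, a Ccl25 UMI was found in 31.3% and 26.8% of enterocyte-like cells and in 11.3% and 10.0% of crypt-like cells. Before thinning, the median depths were 4194 and 2983 UMIs in enterocyte-like cells and 12025 and 17773 UMIs in crypt-like cells.

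The 4 enterocyte-like clusters were unequal. The cluster led by Apoa1, an apolipoprotein of villus enterocytes, held 526 and 798 CPM of Ccl25 (exact Poisson 95% intervals 493 to 560 and 675 to 937), and the cluster led by Gsta1 held 400.4 and 586 CPM. The cluster led by Fabp2, which encodes a fatty acid binding protein, held 288 and 429 CPM. The lowest was the cluster marked by Ada and Krt20, genes of the villus tip, with 148 and 119 CPM (intervals 105 to 203 and 61.5 to 208). Its interval lay below those of the other 3 clusters in both mice. These intervals cover counting error only. The Ada and Krt20 cluster was also shallow, with medians of 933 and 1386 UMIs and Epcam in 44.8% of its cells. The Apoa1 cluster had medians of 6504 and 5418 UMIs and Epcam in 99.6% of its cells. Whether depth or cell quality bears on the lower Ccl25 level was not tested.

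Outside the epithelium Ccl25 was low but not even. T-cell-like classes held between 0 and 32.4 CPM, and the unresolved T-cell-like class held 26.1 and 30.8 CPM. IgA plasma-cell-like cells held 2.26 and 3.48 CPM. In their sums 67.3% and 68% of the UMIs were of immunoglobulin genes, which lowers the CPM and thinned shares of other genes. Thinned to 1000 UMIs, 2.41% and 2.81% of the unresolved T-cell-like cells had a Ccl25 UMI, against 0.204% and 0.335% of IgA plasma-cell-like cells. Because that class holds so many cells, 34.9% of all Ccl25 UMIs of mouse 2 lay in it, close to the 35.2% in enterocyte-like cells, and the class held 31.2% of all UMIs of that library. Epcam, an epithelial surface gene, was seen in 9.9% to 44.8% of the cells of its T-cell-like clusters. In the 2 plasma-cell-like clusters it was seen in 64.8% and 71.8% of cells, so it did not go with Ccl25 over classes. Those cells were deeper, with medians of 23662 and 20404 UMIs in the larger cluster, and such shares rise with depth. In the clusters of the named T-cell-like classes the share ran from 2.63% (naive) to 23.3% (gamma-delta). Whether these cells made the Epcam themselves, or epithelial RNA gave it or the Ccl25 UMIs, was not tested.

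The 2 start sites that RefSeq lists for Ccl25 lie far apart, and both windows are shown because the enterocyte pattern above turns on this gene. Ccl25 (ENSMUSG00000023235) spans chr8:4325210-4360020 on the plus strand of GRCm38. Each window runs from 250 bases before a start to 50 after it, printed 5′ to 3′ from RefSeq on GRCm38.p6, and capitals mark the letters TTTATG on either strand, the core read by caudal (CDX) homeobox proteins of the intestine.
Ccl25 first start, chr8:4324960-4325259, plus strand: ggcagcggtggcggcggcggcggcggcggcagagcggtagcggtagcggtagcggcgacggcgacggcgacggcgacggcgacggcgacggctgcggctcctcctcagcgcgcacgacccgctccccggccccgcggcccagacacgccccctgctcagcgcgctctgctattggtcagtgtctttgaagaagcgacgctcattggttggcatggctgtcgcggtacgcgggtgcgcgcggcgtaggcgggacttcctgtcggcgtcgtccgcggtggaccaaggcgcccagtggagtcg
Ccl25 second start, chr8:4349338-4349637, plus strand: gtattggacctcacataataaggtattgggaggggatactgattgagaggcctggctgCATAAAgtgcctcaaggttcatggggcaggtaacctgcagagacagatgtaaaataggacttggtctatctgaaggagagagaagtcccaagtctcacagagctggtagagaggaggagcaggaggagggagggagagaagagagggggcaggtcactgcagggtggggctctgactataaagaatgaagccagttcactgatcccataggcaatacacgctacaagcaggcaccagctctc
The first window is rich in G and C and holds no match, and the second holds 1 match, on the minus strand at position -192 from the start. Of 32851 such windows of all genes, 11.9% hold these letters, so the match describes the sequence and is no evidence of a site. The letters CTTTGA, the core of the TCF and LEF proteins of Wnt signalling, occur once in the first window, at -68, and in 16% of all windows. Among the 9 windows of the 7 members with an entry, TTTATG was found in this window alone. Counts by 3′ tags do not tell which start was used.

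Ccl20, the ligand of CCR6 and a gene of follicle-associated and inflamed epithelium, was thinly counted. Enterocyte-like cells held 11.7 CPM in mouse 1 (51 UMIs) and 13.8 CPM in mouse 2 (9 UMIs), 12.7 ± 1.48 (s.d., n = 2). Crypt-like cells held 1 UMI in each mouse and Paneth-like cells none, which allows up to 5.396 and 7.49 CPM there. Enterocyte-like cells thus carried 83.6% and 90% of all Ccl20 UMIs of the 2 libraries while holding 5.39% and 1.84% of all UMIs. Ccl20 did not pass the filter on low counts in the fit of 15 classes and so was not tested between crypt-like and enterocyte-like cells. With no filter on low counts it was called there (adjusted p = 0.00781), on the single UMI of each mouse's crypt-like cells. Its start window is shown since it holds the densest motif of the set, 4 overlapping matches of the kappa-B motif read by NF-kappa-B, in capitals. Both strands were searched.
Ccl20 start, chr1:83116516-83116815, plus strand, GRCm38.p6: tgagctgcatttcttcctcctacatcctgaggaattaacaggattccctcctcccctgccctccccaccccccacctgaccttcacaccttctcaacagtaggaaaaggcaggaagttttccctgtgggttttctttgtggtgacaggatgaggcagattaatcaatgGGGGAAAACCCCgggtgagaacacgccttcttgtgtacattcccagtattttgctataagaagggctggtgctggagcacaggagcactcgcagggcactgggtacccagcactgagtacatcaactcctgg
The motif is common, with 50.8% of all windows holding at least 1 match, and Ccl28, Ccr9, Itgb7 and 1 window of Ccr6 hold them too.

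Ccl28 was the scarcest ligand, with 33 and 7 UMIs in all kept cells. Crypt-like cells held 9 and 6 of these (5.12 and 10.8 CPM), enterocyte-like cells 18 and 1 (4.12 and 1.53 CPM) and Paneth-like cells 3 and 0. The exact Poisson 95% intervals of crypt-like cells, 2.34 to 9.73 and 3.95 to 23.4 CPM, overlapped those of enterocyte-like cells, 2.44 to 6.51 and 0.0387 to 8.52 CPM, so a difference along the crypt-villus axis was not detectable at this depth. Among leukocyte classes with a test, IgA plasma-cell-like cells of mouse 1 held the only Ccl28 level above 0, at 0.0418 CPM.

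**Figure D2:**
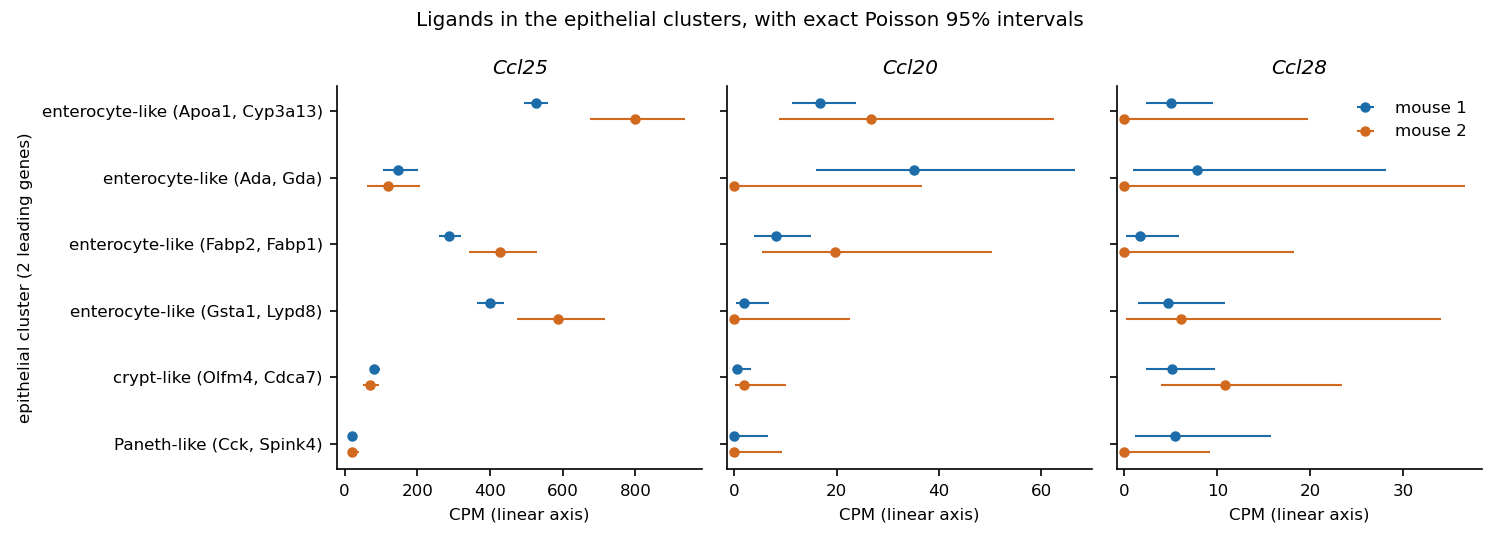
CPM of the 3 ligands, on linear axes, in the 4 enterocyte-like clusters, the crypt-like cluster and the Paneth-like cluster, each named with its leading genes; points are the mice and bars exact Poisson 95% intervals. Ccl25 is highest in the Apoa1 cluster, at 526 and 798 CPM, and the intervals of Ccl28 overlap between crypt-like and enterocyte-like cells.

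Ccr9 encodes the receptor of CCL25. Its highest level was in Siglech dendritic-cell-like cells, the class that carries markers of plasmacytoid dendritic cells, with 985 and 1337 CPM (1161 ± 248, s.d., n = 2). Gamma-delta T-cell-like cells followed with 636 and 856 CPM, CD4 T-cell-like cells with 298 and 824 CPM and CD8 T-cell-like cells with 491 and 576 CPM. The CD4 T-cell-like range overlapped the other 2, so its place is not resolved by 2 mice. Gamma-delta lay above CD8 T-cell-like cells in both mice (log2 ratios 0.37 and 0.57), a difference that was not called. The gamma-delta T-cell-like class is 1 cluster of 287 and 742 cells, while gating T cells on Trdc UMIs gave 1337 and 3050 cells. Its level therefore does not stand for all T cells with Trdc, many of which are in the unresolved class. Below them stood the unresolved T-cell-like class (276 and 318 CPM) and innate-lymphoid-like cells (183 and 180.2 CPM). Lower by CPM were IgA plasma-cell-like cells (66.7 and 106 CPM) and naive T-cell-like cells (59.5 and 112 CPM). Immunoglobulin genes made up 67.3% and 68% of the UMIs of IgA plasma-cell-like sums, which lowers the CPM of other genes there. Unthinned, a Ccr9 UMI was seen in 1341 of 1960 and 444 of 597 of these deep cells. They held 38.5% and 14.8% of all Ccr9 UMIs. Dendritic-cell-like, B-cell-like, macrophage-like and monocyte-like cells held between 15.1 and 58.6 CPM, with overlapping neighbours, and epithelial classes at most 6.26 CPM. Treg-like cells, with 35 and 17 cells too few for a test, held 884 and 850 CPM. Thinned to 1000 UMIs, a Ccr9 UMI was found in 64.5% and 56.7% of Siglech dendritic-cell-like cells, against 0.516% and 0.813% of enterocyte-like cells. The median depths before thinning were 8275 and 6226 UMIs in the former and 4194 and 2983 UMIs in the latter.

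The spread of the CD4 T-cell-like level came with its clusters. The cluster found in both mice (46 and 81 cells) held 449.9 and 843 CPM of Ccr9, and the cluster of 33 and 2 cells held 43.5 CPM in mouse 1. CD8 minus CD4 T-cell-like cells gave a log2 difference of -0.05 ± 0.37 for Ccr9, with a 95% interval of -0.83 to 0.72, so no difference was detected at this precision. It was 0.75 without mouse 2 and -0.52 without mouse 1, opposite in sign.

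Ccr9 was lower in B cells than in T cells. B-cell-like cells held 32.7 and 56.0 CPM, and the log2 difference from the mean of the 5 T-cell-like classes was -2.54 ± 0.38 (adjusted p = 2.18e-05). It was -4.74 ± 0.57 when the cells with the highest doublet scores were left out and -3.35 ± 0.48 without the small cluster of B-cell-like cells described with Ccr10. The first setting also left the B-cell-like class without that small cluster, so the 2 are not separate. Innate-lymphoid-like cells differed from the same mean by -1.13 ± 0.33 (adjusted p = 0.0259), a call that was lost under 7 of the alternative settings. Naive T-cell-like cells differed from the mean of the other 4 T-cell-like classes by -2.47 ± 0.42 (adjusted p = 0.000327), and without mouse 1 by -2.33 with an adjusted p of 0.0859. The T-cell-like sums are shared between these 3 comparisons, which are therefore not independent of each other.

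Plasma cells were compared with B cells to see which homing genes change with antibody secretion. Of the 7 members tested 5 were called between IgA plasma-cell-like and B-cell-like cells, where 24.9% of all 11275 genes tested were called. Ccr10, the receptor of CCL28, stood at 127 and 88.7 CPM in IgA plasma-cell-like cells and at 46.2 and 6.23 CPM in B-cell-like cells, and its log2 difference was 2.92 ± 0.69 (adjusted p = 0.00329). Ccr9 was higher by 2.45 ± 0.42 on the log2 scale (adjusted p = 0.000132). Both differences were larger when the cells with the highest doublet scores were left out, 6.32 ± 0.75 for Ccr10 and 4.79 ± 0.61 for Ccr9. With total UMIs they were smaller, 1.63 ± 0.66 and 1.10 ± 0.44. Leaving out those cells changed the classes too. The B-cell-like class was then 1 cluster of 357 and 80 cells, without the small B-cell-like cluster. A cluster of 247 and 12 cells led by Iglc1 became plasma-cell-like. This setting is therefore not separate from leaving out the small cluster. Ccr10 was not called by DESeq2 (adjusted p = 0.199), and without mouse 1 its difference was 5.38 ± 1.47. Ccr6 was at 0.314 and 0.243 CPM in IgA plasma-cell-like cells against 56.4 and 24.9 CPM in B-cell-like cells (log2 difference -5.87 ± 0.74, adjusted p = 9.86e-06). S1pr1 was at 0.899 and 0.162 CPM against 112 and 153 CPM (log2 difference -6.11 ± 0.59, adjusted p = 1.74e-07). Itgb7 was called higher by 1.10 ± 0.30 on the log2 scale (adjusted p = 0.00773), a call that rests on the scaling: immunoglobulin genes made up 67.3% and 68% of the UMIs of IgA plasma-cell-like sums and 27.8% and 16.3% of those of B-cell-like sums. As plain CPM, Itgb7 stood at 54.4 and 54.5 CPM against 69.2 and 56.0 CPM. With total UMIs in place of TMM factors, the median log2 difference of all genes moved from 0.12 to -1.17, that of Itgb7 became -0.24 ± 0.29 (adjusted p = 0.503) and that of Itga4 went from 0.39 ± 0.35 to -0.996 ± 0.39 (adjusted p = 0.0328). Without mouse 1, Ccr6 and Itgb7 missed the threshold (adjusted p = 0.0604 and 0.0573), as did Itgb7 without mouse 2 (adjusted p = 0.142). Relative to the median of all genes both chains lay higher under either scaling, but Itga4 by less than its SE. A difference from that median was not tested.

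Ccr10 was concentrated in IgA plasma-cell-like cells, which carried 88.3% and 85.6% of all its UMIs while holding 59.0% and 34.8% of the UMIs of the libraries. Both plasma-cell-like clusters held it, one at 111 and 73.7 CPM and the other at 187 and 165 CPM. Thinned to 1000 UMIs, 13.1% and 9.72% of IgA plasma-cell-like cells had a Ccr10 UMI, against 0.589% and 0.0751% of unresolved T-cell-like cells. Within the B-cell-like class nearly all of it lay in 1 cluster of 45 and 4 cells whose leading genes include immunoglobulin variable genes and in 61.2% of whose cells Epcam was seen. That cluster held 99.5 CPM in mouse 1, while the large B-cell-like cluster of 389 and 93 cells held 4.68 CPM in mouse 1 and 0 UMIs in mouse 2, which allows up to 12.6 CPM. Without the small cluster, 5 members were called between IgA plasma-cell-like and B-cell-like cells, against 3408 of all 11296 genes tested. The log2 differences were then 6.41 ± 0.93 for Ccr10 and 3.26 ± 0.52 for Ccr9. Only 3 cells, all of mouse 1, had more Ighm or Ighg than Igha UMIs among the plasma-cell-like cells, so receptors could not be compared by isotype.

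Ccr6, the receptor of CCL20, was found in few classes. Innate-lymphoid-like cells held 120.0 and 51.5 CPM, CD4 T-cell-like cells 68.1 and 27.3 CPM and B-cell-like cells 56.4 and 24.9 CPM, and the ranges of these neighbours overlapped. Treg-like cells held 84.5 and 101 CPM, from 11 and 7 UMIs. All Ccr6 UMIs of the innate-lymphoid-like class lay in the cluster whose leading genes include Il22, a cytokine of innate lymphoid cells, at 192 and 81.4 CPM (86 and 14 UMIs), and the other clusters of that class held none. Every other class with a test held at most 5.92 CPM. Gamma-delta and naive T-cell-like cells held no Ccr6 UMI, which allows up to 2.62 and 1.26 CPM in gamma-delta T-cell-like cells. The naive T-cell-like sums were smaller, with 420156 and 80640 UMIs against 1144367 and 2373026 in gamma-delta T-cell-like cells. A count of 0 therefore allows higher levels in naive T-cell-like cells, above all in mouse 2, and does not show absence there.

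B-cell-like and innate-lymphoid-like cells were each set against the mean of the 5 T-cell-like classes. For B-cell-like cells 5 of 7 members were called, 3 higher and 2 lower, against 18.7% of all genes tested, and 2 of 7 for innate-lymphoid-like cells, 1 in each direction, against 11.6%. Ccr6 was called higher in both, as was Ccr10 in B-cell-like cells, but T-cell-like classes without a UMI enter that mean, so these fitted values depend on the prior count and are not printed. Without the small B-cell-like cluster that holds most of the Ccr10, 4 members were called for B-cell-like cells, and Ccr10 was not called without mouse 1 either (adjusted p = 0.704). With the mouse as a replicate block, 6 were called, Itga4 being the sixth. Of all genes tested, 1778 of 11296 were called without that cluster and 2409 of 11275 with the block. The innate-lymphoid-like call of 2 members fell to 1 when either mouse was left out and under 5 other settings, since Ccr9 then missed the threshold, with adjusted p between 0.0739 and 0.402 over those 7.

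CD8 T-cell-like cells were compared with CD4 T-cell-like cells, and 2 of 7 members were called, both lower in CD8 T-cell-like cells, against 2.18% of all genes tested. Ccr6 was at 0.605 and 1.31 CPM (1 UMI in each mouse) against 68.1 and 27.3 CPM, with a log2 difference of -5.77 ± 1.18 (adjusted p = 0.0108). S1pr1 was at 1.81 and 7.83 CPM against 64.9 and 82.0 CPM, with a log2 difference of -4.21 ± 0.82 (adjusted p = 0.00622). Both calls were lost when either mouse was left out and when T subsets were gated on single UMIs. Without the CD4 T-cell-like cluster that came almost wholly from mouse 1, Ccr6 kept its call and S1pr1 had a log2 difference of -3.59 ± 1.02 with an adjusted p of 0.0851.

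Gamma-delta T-cell-like cells were set against CD8 T-cell-like cells, and where either class lay in the tissue was not measured. None of 7 members was called by edgeR at an adjusted p under 0.05, against 2.42% of all genes tested, while 3 of the 7 had an unadjusted p under 0.05 and DESeq2 called 1. Itgb7 stood at 179 and 183 CPM in gamma-delta T-cell-like cells and at 300.5 and 363 CPM in CD8 T-cell-like cells, 2 ranges that did not overlap, with a log2 difference of -0.93 ± 0.28 (adjusted p = 0.0934). Itga4 stood at 161 and 158 CPM against 255 and 335 CPM, with a log2 difference of -0.94 ± 0.35 (adjusted p = 0.256). With the mouse as a replicate block both were called, at adjusted p of 0.00806 and 0.0314 for the same sizes of difference to within 0.01. The block called 468 of all 11275 genes tested, and DESeq2 called 291. With T subsets gated on UMIs, Itgb7 differed by -0.29 ± 0.29. In that setting 2 of 8 members were called, both lower in gamma-delta T-cell-like cells, against 251 of all 11782 genes tested.

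**Figure D3:**
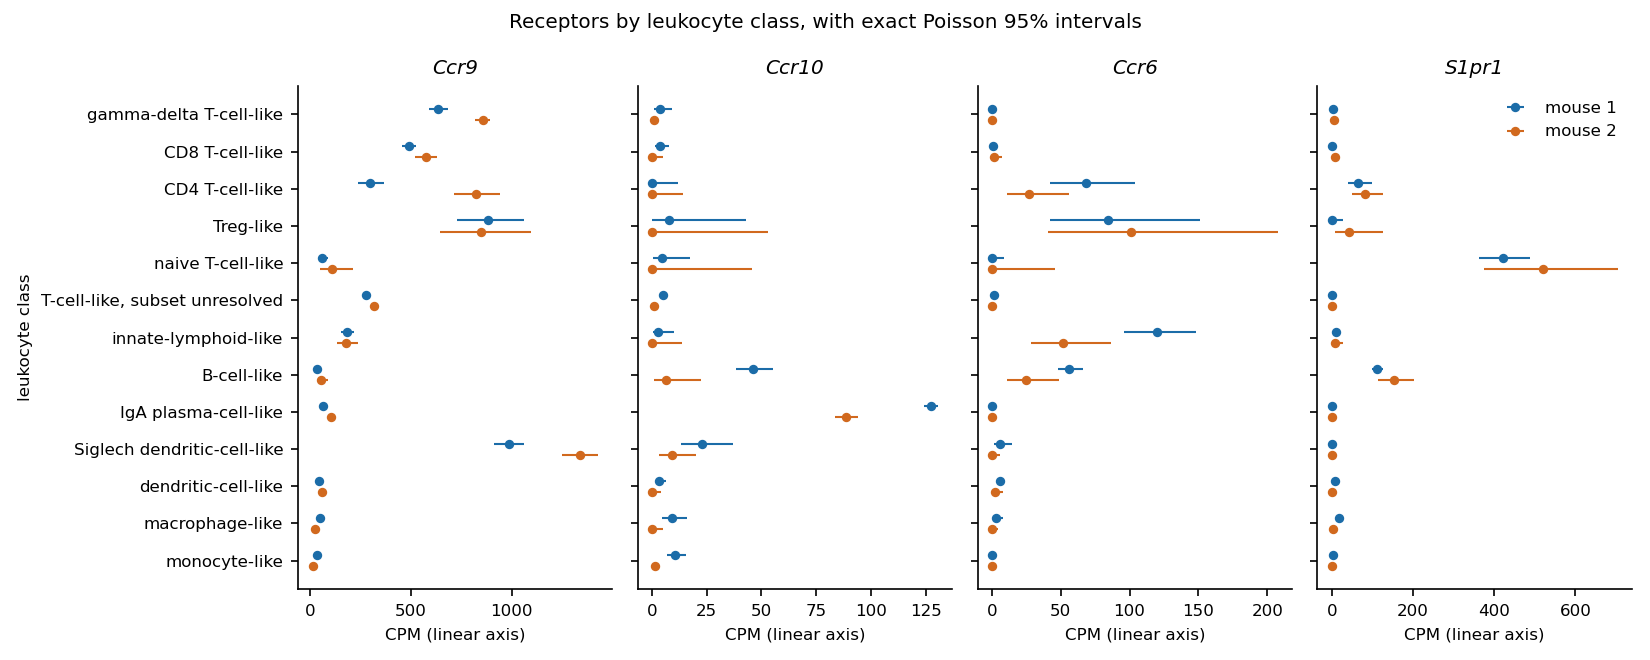
CPM of Ccr9, Ccr10, Ccr6 and S1pr1, on linear axes of their own, in the 12 leukocyte classes with a test and in Treg-like cells; points are the mice and bars exact Poisson 95% intervals. Ccr9 peaks in Siglech dendritic-cell-like cells, Ccr10 in IgA plasma-cell-like cells (127 and 88.7 CPM) and S1pr1 in naive T-cell-like cells (421 and 521 CPM).

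The integrin chains were spread more widely than the receptors. Itga4, the α4 chain shared by α4β7 and α4β1, was at 311 and 383 CPM in CD4 T-cell-like cells, 326 and 333 CPM in dendritic-cell-like cells, 311 and 309 CPM in innate-lymphoid-like cells and 252 and 268 CPM in B-cell-like cells. Naive T-cell-like cells ranked first by their mean, but with 131 CPM in mouse 1 and 583 CPM in mouse 2 the mice differed most there, and mouse 2 gave only 23 such cells. Among the 8 highest classes neighbouring ranks overlapped, except that dendritic-cell-like cells lay above innate-lymphoid-like cells, and CD4 T-cell-like, dendritic-cell-like and innate-lymphoid-like cells lay above Siglech dendritic-cell-like, monocyte-like and B-cell-like cells with no overlap. The unresolved T-cell-like class had the lowest mean of the leukocytes with a test, at 111 and 125 CPM. Epithelial classes held at most 12.5 CPM.

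Itgb7, the β7 chain shared by α4β7 and αEβ7, was highest in CD8 T-cell-like cells (300.5 and 363 CPM), followed by the unresolved T-cell-like class (282 and 291 CPM) and innate-lymphoid-like cells (290.2 and 206 CPM). IgA plasma-cell-like cells held 54.4 and 54.5 CPM, and macrophage-like cells, the lowest leukocytes, 27.5 and 18.3 CPM. As for Ccr9, the share of immunoglobulin UMIs lowers the CPM of IgA plasma-cell-like cells. B-cell-like cells held 69.2 and 56.0 CPM, lower than the mean of the T-cell-like classes by 1.27 ± 0.26 on the log2 scale (log2 difference -1.27, adjusted p = 0.00073), a call that was lost without mouse 2 (adjusted p = 0.107). Treg-like cells held 354 and 360.1 CPM.

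Macrophage-like cells were compared with dendritic-cell-like cells, since dendritic cells leave the gut for lymph nodes and most macrophages stay. Here 2 of 7 members were called, both lower in macrophage-like cells, against 14.2% of all genes tested. Itgb7 differed by -1.97 ± 0.33 on the log2 scale (adjusted p = 0.000185), with dendritic-cell-like cells at 70.2 and 109 CPM. Itga4 differed by -1.18 ± 0.36 (adjusted p = 0.0287), with macrophage-like cells at 129 and 179 CPM. The Itga4 call was lost when either mouse was left out, when the cells with the highest doublet scores were left out (adjusted p = 0.0551) and with total UMIs in place of TMM (adjusted p = 0.0673), and Itgb7 was called under each of these, at -2.68 without mouse 1 and -3.03 without those doublet scores. Neither Ccr9, with a log2 difference of -0.46 ± 0.42, nor Ccr6, with -1.38 ± 1.24, was called.

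S1pr1, the egress receptor, belonged to the naive T-cell-like cells. They held 421 and 521 CPM (471 ± 70.4, s.d., n = 2), B-cell-like cells 112 and 153 CPM and CD4 T-cell-like cells 64.9 and 82.0 CPM, and these 3 ranges did not overlap. Every other class with a test held at most 19.1 CPM. Naive T-cell-like cells exceeded the mean of the other 4 T-cell-like classes by 6.44 ± 0.41 on the log2 scale (adjusted p = 9.35e-10), and Ccr9 and S1pr1 were the 2 members called of 7, in opposite directions, against 6.5% of all genes tested. Itga4 had a log2 difference of 0.76 ± 0.31 (adjusted p = 0.185), which was -0.21 without mouse 2, and Itgb7 of -0.14 ± 0.26. Within the B-cell-like class S1pr1 lay in the large cluster, at 183 and 202 CPM, and was at 21.5 CPM in the small cluster of mouse 1. Of the CD4 T-cell-like clusters, the cluster mostly of mouse 1 held 157 CPM there, and the other held 79.9 CPM in mouse 2.

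**Figure D4:**
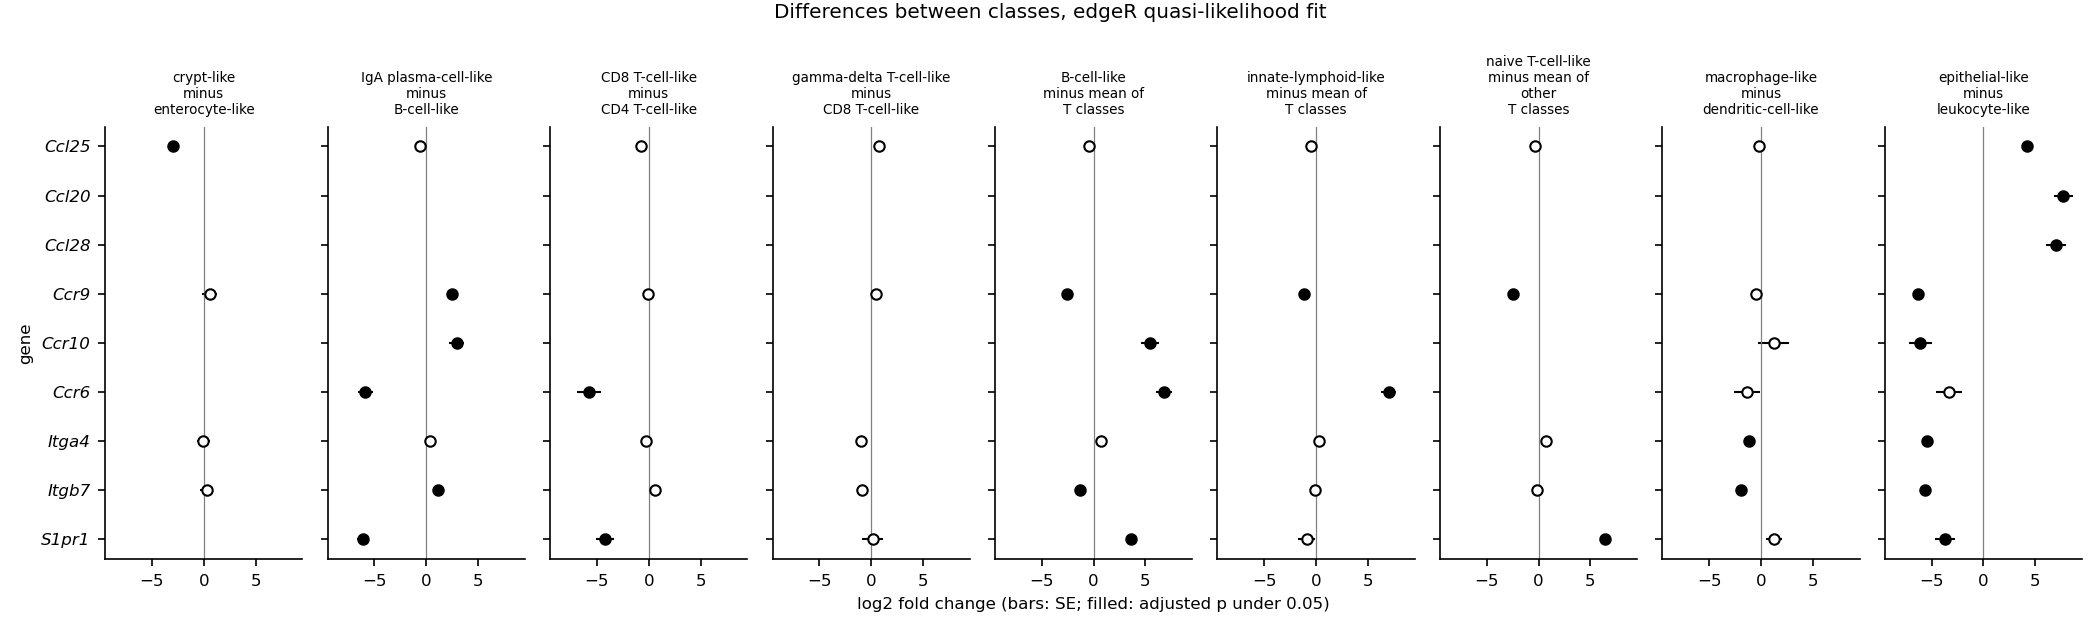
Log2 differences of the members (horizontal axis) in each of the 9 comparisons (panels), with bars for the standard error, for members with an SE under 1.5. Filled points passed an adjusted p of 0.05 in edgeR, as S1pr1 of naive T-cell-like cells (6.44) and Ccl25 of crypt-like cells (-2.99) did, and points for genes with classes at or near 0 UMIs, such as Ccl20, Ccl28 and Ccr6, depend in size on the prior count.

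Whether receptor and integrin or egress gene are seen in the same cells was described within classes, with no test. In CD4 T-cell-like cells with a Ccr9 UMI, S1pr1 was at 7.58 CPM in mouse 1 (1 UMI) and 30.9 CPM in mouse 2 (6 UMIs), and in cells without one at 108 and 243 CPM (19 and 15 UMIs). B-cell-like cells of mouse 1 showed the same order, with 27.0 CPM against 157 CPM, but those with a Ccr9 UMI had a median of 17650 UMIs against 3409. The order was the opposite in the unresolved T-cell-like class, with 5 S1pr1 UMIs in cells with a Ccr9 UMI against 0 in mouse 1 and 16 against 1 in mouse 2 (2.78 against 0.189 CPM), and in gamma-delta T-cell-like cells, with 4 against 0 and 12 against 0 UMIs. In innate-lymphoid-like cells the 2 integrin chains went opposite ways. Itgb7 was at 415 and 295 CPM with a Ccr9 UMI and at 222 and 161 CPM without, and Itga4 was at 214 and 208 CPM with and at 364 and 360.1 CPM without. In the unresolved T-cell-like class Itga4 was at 131 and 141 CPM with and 87.3 and 108 CPM without. Itgb7 of CD8 T-cell-like cells was at 299.9 CPM with and 302 CPM without in mouse 1, and at 329 and 431 CPM in mouse 2. A cell with more UMIs is more likely to show a Ccr9 UMI, and a class made of unlike clusters gives such differences between its clusters too.

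**Figure D5:**
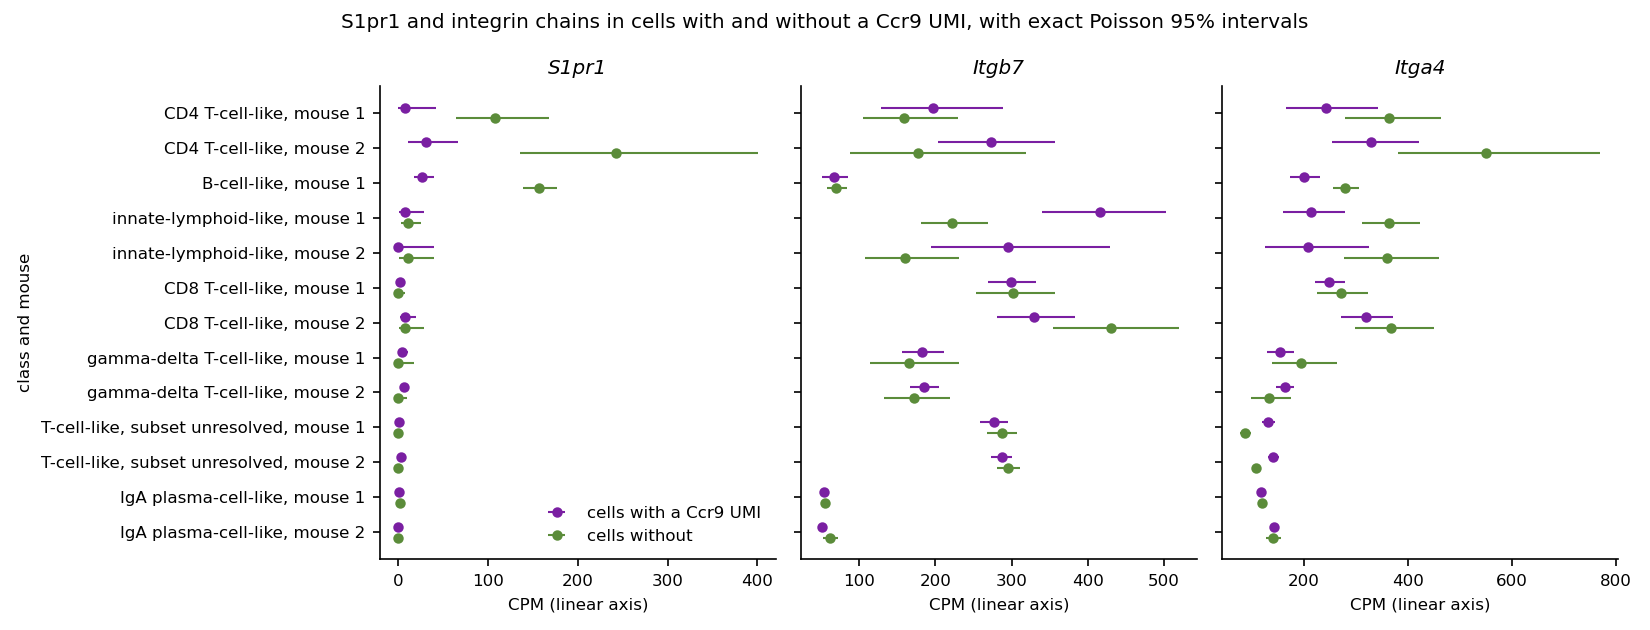
CPM of S1pr1, Itgb7 and Itga4, on linear axes, in cells with and without a Ccr9 UMI, for 7 lymphocyte classes and each mouse with at least 20 cells on each side; bars are exact Poisson 95% intervals. S1pr1 of CD4 T-cell-like cells is lower with a Ccr9 UMI in both mice, at 7.58 against 108 CPM and 30.9 against 243 CPM.

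Both chains of α4β7 were rarely seen in 1 cell at a fixed depth of 1000 UMIs. CD8 T-cell-like cells with UMIs of both made up 3.30% (17 of 516 cells) in mouse 1 and 9.19% (25 of 272 cells) in mouse 2, with exact binomial intervals of 1.93% to 5.22% and 6.04% to 13.3%. IgA plasma-cell-like cells with both made up 0.459% and 0.67%. Immunoglobulin genes take most UMIs of that class, so fewer of the 1000 are left for other genes. No crypt-like or enterocyte-like cell held both. Such shares measure detection and not the number of cells that carry the integrin.

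Other genes of leukocyte traffic were read from a list of 47, of which 36 passed the filter in the fit of 15 classes and 37 in the epithelial fit. In IgA plasma-cell-like against B-cell-like cells 13 of 36 (36.1%) were called, 5 higher and 8 lower, against 24.9% of all genes tested. Among the lower were Cxcr5, the follicle receptor (0.0628 and 0 CPM against 54.5 and 68.5 CPM), Ccr7, the lymph node receptor (0.628 and 0 against 102 and 80.9 CPM), and Gpr183, an oxysterol receptor (log2 difference -3.81 ± 0.44, adjusted p = 1.31e-06). These were lower together with S1pr1 and Ccr6. In naive T-cell-like cells 10 of 36 were called, 5 in each direction, against 6.5% of all genes tested: Ccr7 (209 and 161 CPM) and Klf2, a transcription factor that acts on S1pr1 (476 and 372 CPM), were among the higher, and Cxcr3, an effector T-cell receptor (2.38 and 0 CPM against 67.2 and 52.4 CPM), was among the lower.

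In CD8 against CD4 T-cell-like cells 8 of 36 list genes were called, 4 in each direction, against 2.18% of all genes tested. Gpr183 was at 0.605 and 1.31 CPM against 237 and 129 CPM, Ccr2, a receptor of inflammatory traffic, at 1.81 and 1.31 CPM against 120 and 176 CPM, and Cxcr5 and Cxcr4 were lower as well. The 4 higher genes, named after their values were seen, were Itgae, the αE chain that pairs with β7 (862 and 929 against 81.1 and 195 CPM), Cdh1, the cadherin that αEβ7 binds, Gpr18 and Gpr55. Gamma-delta against CD8 T-cell-like cells gave 2 calls of 36 (5.56%, against 2.42% of all genes tested), both lower, among them Itgal, the αL chain of LFA-1, at 45.4 and 48.9 CPM against 122 and 167 CPM.

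B-cell-like cells against T-cell-like classes gave 14 calls of 36 (38.9%, against 18.7% of all genes tested), 7 in each direction, including Cxcr5 (54.5 and 68.5 CPM), with Cxcr4 and Ccr7 among the called genes. Innate-lymphoid-like cells gave 16 of 36 (44.4%, against 11.6%), 13 higher and 3 lower, with Gpr183 at 456 and 416 CPM against 74.0 and 41.6 CPM, and Cxcr5, Ccr2 and Cx3cl1 higher too. Macrophage-like against dendritic-cell-like cells gave 15 of 36 (41.7%, against 14.2%), 10 higher and 5 lower, with the monocyte chemokine Ccl2 at 64.3 and 118 CPM, Vcam1 at 58.9 and 20.9 CPM, Cxcl10 at 97.9 and 78.4 CPM and Ch25h, which makes the precursor of a Gpr183 ligand, at 20.7 and 34.0 CPM. Ccl2 and Vcam1 had no UMI in dendritic-cell-like cells. In crypt-like against enterocyte-like cells 3 of 36 (8.33%) were called, against 41.7% of all genes tested, all lower: Aldh1a1, a retinal dehydrogenase (3.42 and 3.59 CPM against 36.2 and 124 CPM), Cxcl16 and Cx3cl1. Retinoic acid from such enzymes is known to induce Ccr9 and α4β7 on lymphocytes. In the epithelial fit 33 of 37 (89.2%) were called, 4 higher and 29 lower, against 51.3% of all genes tested. By the median of the list, the log2 difference was -5.29 there against -0.17 over all genes tested, and between -0.81 and 0.52 in the other 8 comparisons.

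By likeness of pattern, measured as Pearson's r of log2(CPM + 1) over 15 classes among 11574 genes, Ccl25 lay nearest to Aamdc (r = 0.942), Tmlhe and Nadk2, and Ccr9 to Sla2 (0.952), Selplg and Rab6b. Ccr10 lay nearest to Igkv3-2 (0.956), Prg2 and Ighv9-3, and S1pr1 to Ccr7 (0.877), Cd2 and Sh3bp5. Itga4 lay nearest to the pan-leukocyte genes Cd52 (0.976), Cd53 and Msn, and Itgb7 to Ankrd44 (0.964), Mapk8ip3 and Cyfip2. The 15 points of each r share 2 libraries, and differ in depth and base composition. Ccl28, Ccl20 and Ccr6 had fewer than 50 UMIs in a mouse and were not compared.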

How the data were processed

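The files hold unnormalised UMI counts of 9645 and 8800 barcodes as deposited, made by the authors with Cell Ranger 6.1.2 on mm10; the annotation release is not given in the sources used here. Gene identifiers equalled those of GENCODE M21. Genes in at least 3 cells and barcodes with over 100 genes, over 400 UMIs, under 5% mitochondrial and under 10% haemoglobin UMIs were kept. Doublets were kept, as the methods name no removal; Scrublet called 142 cells (1.788%) in mouse 1 and 0 in mouse 2, where it did not work, so leaving out the highest 8% of scores was an alternative.

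The mice were joined with the RPCA method of Seurat 5.3.0 (2000 features without the members and the traffic list, 30 dimensions, resolution 0.8; genes that vary with a member stayed among the features), with T-cell and epithelial clusters sub-clustered (k.weight 100, and 50 for epithelial and CD4-rich sub-clusters). A marker counted when seen in at least 10% of a cluster with a log2 fold of at least 1, and a name needed 3 such markers. T subsets were named by shares of cells with Foxp3 (50%), Cd8b1 (50%), Cd4 (25%) or Trdc (70%), the last only where no fewer gamma-delta than CD8 markers were among the 10 leading genes, which left 2 clusters with Trdc in 78.4% and 92.7% of cells unresolved. Naming rules were written, and once loosened, after leading genes were seen: the loosening named the Gsta1 cluster enterocyte-like. The study's own cell labels were not used here.

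Counts summed per mouse and class were tested in edgeR 4.0.16 (filterByExpr, TMM, glmQLFit, glmQLFTest, two-sided, Benjamini-Hochberg over all genes tested, threshold 0.05). Classes of 20 or more cells in both mice shared 1 fit (30 sums, so a spread pooled over classes), and the epithelial and leukocyte sums had a fit of their own. SE is the log2 difference divided by the root of F. The scripts were tested on simulated data. With n = 2, p-values rest on the spread between these 2 mice. In the shared fit that spread is pooled over its classes, so a p-value does not measure the spread of the compared classes alone. The main fits had no term for the mouse and so treated sums of the same mouse as independent. Sums with the same number come from the same mouse, so they are paired by the labels; their deviations correlated with r from 0.0597 to 0.626 over 105 class pairs, 97 of them over 0.1. A floor is 3 UMIs of the class sum, and intervals, at 95%, cover counting error only.

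All 9 members are named, and of the traffic list up to 4 called genes a comparison, by largest log2 difference with 1 sign in both mice; the rest of that list is given as counts, and some genes the rule names are not reported here. The members and lists were chosen with earlier results of these data known. Alternatives were DESeq2 1.42.0, RLE scaling, no filter, the replicate block, each mouse left out, mitochondrial UMIs under 10%, resolution 1.2, doublets left out, members kept as features, T subsets gated on UMIs and, added after the data were seen, total-UMI scaling, B-cell-like cells without the small cluster and CD4 T-cell-like cells without the cluster mostly of mouse 1.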

Additional observations from a re-analysis of the deposited data

Results flagged for a closer look

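Members were also counted in data that no comparison used, above the 3 UMIs that a count of 0 allows, with both mice summed. Barcodes removed by the filters held 232 UMIs of Ccl25, 1535 of Ccr9, 4 of Ccl28, 149 of Ccr10, 5 of Ccl20, 25 of Ccr6, 1064 of Itga4, 1066 of Itgb7 and 46 of S1pr1. Cells of clusters given no name held 310 UMIs of Ccl25, 594 of Ccr9, 696 of Ccr10, 7 of Ccl20, 7 of Ccr6, 854 of Itga4, 416 of Itgb7 and 26 of S1pr1. Among these, the cluster of 40 and 44 cells whose leading genes include Mki67 and Top2a, genes of dividing cells, held Ccr10 at 226 and 154 CPM and Ccr9 at 92.1 and 188 CPM.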

How the results depend on the processing

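The numbers of members called stayed within 1.5 times of the reported count in 79 of 102 comparisons of a count with an alternative. With each mouse left out in turn, they ranged from 3 to 4 for IgA plasma-cell-like against B-cell-like cells, were 0 for CD8 against CD4 T-cell-like cells, 1 for innate-lymphoid-like cells, from 1 to 2 for naive T-cell-like cells and 1 for macrophage-like against dendritic-cell-like cells. With total UMIs in place of TMM, 2 members were called for crypt-like against enterocyte-like cells, 1 for innate-lymphoid-like cells and 1 for macrophage-like cells. With no filter on low counts, 2 were called for crypt-like cells. For CD8 against CD4 T-cell-like cells, 1 was called at mitochondrial UMIs under 10% and 1 without the cluster mostly of mouse 1, and 0 with T subsets gated on UMIs. For gamma-delta against CD8 T-cell-like cells, 2 were called with the mouse as a replicate block, 1 by DESeq2 and 2 with gated subsets. For innate-lymphoid-like cells, 1 was called at mitochondrial UMIs under 10%, resolution 1.2, without the highest doublet scores and with members kept as features, and 1 for macrophage-like cells without those doublet scores. The causes were not tested. The block raised the counts for B-cell-like against T-cell-like cells to 6 and for epithelial-like cells to 9, and beside these and the gamma-delta count it changed no other. It raised the number of all genes called in every comparison, as from 7028 to 7988 for epithelial-like cells.

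Of the differences that changed sign, 1 had been called, that of Itgb7 in IgA plasma-cell-like cells. With total UMIs it became -0.243 and that of Itga4 -0.996. For CD8 against CD4 T-cell-like cells, Ccr9 became 0.02 with no filter, 0.12 with gated subsets, and with each mouse left out it ranged from -0.52 to 0.75. With each mouse left out, the naive T-cell-like differences ranged from -0.21 to 1.47 for Itga4 and from -0.408 to 0.013 for Itgb7, and that of Ccr9 in macrophage-like cells from -1.34 to 0.090. Itgb7 of naive T-cell-like cells became 0.057 with members kept as features.

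Total-UMI scaling also moved the split of all called genes, from 1945 higher and 2760 lower to 2663 and 1824 for crypt-like cells, from 1560 and 1248 to 202 and 6033 for IgA plasma-cell-like cells, from 1309 and 799 to 770 and 2609 for B-cell-like cells, from 942 and 369 to 1314 and 176 for innate-lymphoid-like cells, from 385 and 348 to 284 and 762 for naive T-cell-like cells and from 3260 and 3768 to 3541 and 2387 for epithelial-like cells. IgA plasma-cell-like cells gave 6235 calls under it against 2808.

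Of the levels, Ccr9 in Siglech dendritic-cell-like cells averaged 1493 CPM without the highest doublet scores. Thinned to 2000 UMIs, shares of cells with a UMI, averaged over the mice, were 49.9% for Ccl25 in enterocyte-like, 81.2% for Ccr9 in Siglech dendritic-cell-like, 1.35% for Ccl28 in crypt-like, 17.2% for Ccr10 in IgA plasma-cell-like, 13.2% for Ccr6 in innate-lymphoid-like, 44.1% for Itga4 in naive T-cell-like, 45.4% for Itgb7 in CD8 T-cell-like and 55.1% for S1pr1 in naive T-cell-like cells, since more UMIs were read a cell.

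IgA plasma cells were not set against IgM and IgG plasma cells (3 and 0 cells), and Treg-like against CD4 T-cell-like cells was fitted only at mitochondrial UMIs under 10%, where 0 of 7 members were called in edgeR and 1 had an unadjusted p under 0.05. Without either mouse the epithelial fit has no residual spread, so it gave values only.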
